A study of Mus musculus with 6 samples.

Results

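Rab5a, Cav2, Tm9sf1 and Anxa8 encode 4 proteins of membrane trafficking, and their RNA was followed in mouse sperm of control and cadmium-treated (Cd) males. The genes were picked by name and by probe with earlier results of these data known: they are 4 of 45 catalogue genes with a known symbol on an array of 60691 probes, and each has 1 probe printed as 10 spots. All mice were male C57BL/6. From 5 weeks of age the control group had control drinking water and the Cd group had water with 100 mg/L CdCl2, each for 10 weeks, and sperm were collected at 15 weeks (3 arrays per group, each labelled a biological replicate). On every array the immunoprecipitated (IP) RNA of a sample carried the red dye Cy5 and its supernatant RNA the green dye Cy3. The molecule that the IP was aimed at was not stated in the sources used here. With 1 dye orientation the fraction and the dye cannot be told apart. Whether the samples came from separate animals or from pools is not stated, so the errors below measure the spread between these arrays.

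Membrane trafficking moves lipids and proteins between the cell surface, endosomes and the Golgi. Rab5a is a small GTPase that marks early endosomes and recruits the factors for their fusion. Caveolin 2, the product of Cav2, works with caveolin 1 in caveolae, the small flask-shaped pits of the plasma membrane. Tm9sf1 belongs to the nonaspanins, proteins with several membrane passes found in Golgi and endosomal membranes. Anxa8 is an annexin, which binds acidic phospholipids when calcium is present. In sperm the acrosome is a large vesicle that arises from Golgi and endosomal membrane traffic during spermatogenesis. Mature sperm make little new RNA and shed most of their cytoplasm, so the RNA they hold is mostly made at earlier stages.

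Arrays differed in brightness. Between 28.2% and 44.8% of probes were well above background in the IP channel in control, and between 43.8% and 49.4% in Cd. For the supernatant the ranges were 35.2% to 44.1% and 45.6% to 49.9%. Control replicate 1 was the dimmest array, with a 75th percentile of summed intensity of 657 against 966 to 1070 on the others. All control arrays share 1 scan time and all Cd arrays another, so a scan effect cannot be told apart from Cd. Mouse Gapdh control probes had a log2 5′ minus 3′ signal of -1.46 to -1.40 in control and -1.92 to -1.81 in Cd in the IP channel, and the groups did not overlap in the supernatant either (-0.55 to -0.15 and -0.77 to -0.57). The part of these differences in the values below was not tested.

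Of the 240 spots of the 4 genes over the 6 arrays, 20 carried an outlier flag and 220 were used, and 0 were saturated. A probe was taken as well above background on an array when at least 50% of its used spots were. By that measure Rab5a and Tm9sf1 were measured in both channels on all 6 arrays. Cav2 was measured on control replicate 2, Cd replicate 1 and Cd replicate 2 only, in both channels. Anxa8 was measured in both channels on the same 3 arrays and in the IP channel also on control replicate 3 and Cd replicate 3. All 4 genes met the filter of 3 arrays and entered every test.

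**Figure D1:**
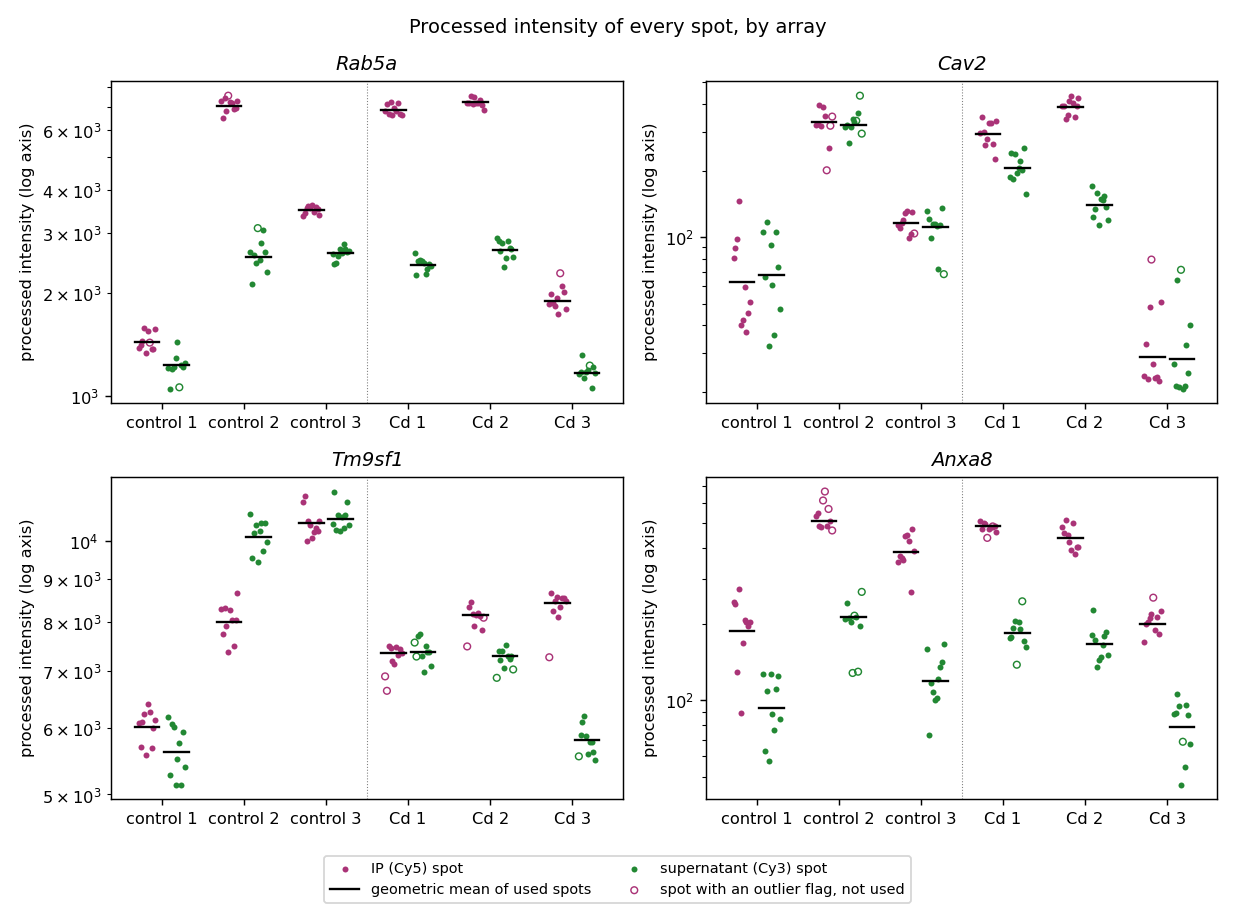
Processed intensity (log axis, scanner units) of each of the 10 spots per array for Rab5a, Cav2, Tm9sf1 and Anxa8, with IP spots in purple and supernatant spots in green; open circles carry an outlier flag in either channel and black bars are geometric means of the used spots. Spots of Rab5a and Tm9sf1 lie close together within an array, Cav2 is dim on control replicates 1 and 3 and Cd replicate 3, and axes differ between the panels.

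Rab5a, the early endosome GTPase (probe A_51_P117604, transcript NM_025887), differed more between arrays of a group than between the groups. Its IP intensity was 1440, 7060 and 3500 on control replicates 1, 2 and 3 and 6860, 7210 and 1900 on Cd replicates 1, 2 and 3. Its supernatant intensity was 1230, 2550 and 2610 in control and 2420, 2680 and 1170 in Cd. Control replicate 1 and Cd replicate 3 were the lowest arrays in both channels, and the IP signal spanned 5.01-fold over the arrays against 2.29-fold in the supernatant. All 10 spots were well above background in both channels everywhere, and the 10 spots of an array differed with an SD of at most 0.15 in the log2 ratio.

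The log2 IP over supernatant ratio of Rab5a, centred on the median probe of each array, was 0.21, 1.49 and 0.41 in control and 1.51, 1.47 and 0.61 in Cd. It lay above 0 on 6 of 6 arrays. Control replicate 2 stood with Cd replicates 1 and 2 at the high end, so the groups overlapped. Means were 0.70 ± 0.69 for control and 1.20 ± 0.50 for Cd (SD, n = 3 each), and limma put the log2 difference at 0.50 with an SE of 0.40. The 95% interval from -0.42 to 1.41 corresponds to 0.748-fold to 2.66-fold (limma adjusted p = 0.963 over 23788 probes). The position above 0 in control depended on the centring: with 14 probes that their names give as spike-ins as the reference, the control mean was -0.15 and 3 of 6 arrays lay above 0.

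The RNA level is log2 of the summed dye-normalized channels minus the 75th percentile of the array. After dye normalization the median log2 ratio of the arrays lay between -0.04 and 0.08, so both fractions weigh about equally in the sum. The level thus does not measure the total RNA of a sample. For Rab5a it was 2.02, 3.29 and 2.56 in control and 3.11, 3.22 and 1.67 in Cd. Cd replicates 1 and 2 stood near control replicate 2 at the top, and Cd replicate 3 was the lowest of all. Means were 2.63 ± 0.63 and 2.67 ± 0.86 (SD, n = 3 each), and limma put the log2 difference at 0.04 (SE 0.47, 95% interval -1.05 to 1.13, adjusted p = 0.985). Its sign turned without control replicate 1 (-0.26), without Cd replicate 1 (-0.18) and without Cd replicate 2 (-0.23), and without Cd replicate 3 the difference was 0.54. It was also -0.02 with quantile normalization, -0.05 when the channels were averaged on the log2 scale and 0.27 with normexp background correction. Scaled in the same way by channel, the difference was 0.20 (SE 0.58, limma adjusted p = 0.948) in the IP signal and -0.27 (SE 0.31, limma adjusted p = 0.774) in the supernatant. The IP difference was negative without control replicate 1 (-0.18), Cd replicate 1 (-0.07) or Cd replicate 2 (-0.12), and the supernatant difference was 0.06 without Cd replicate 3. In bulk RNA of this kind, a smaller number of cells that hold a transcript and less of it per cell cannot be told apart.

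Cav2, the caveolin that partners caveolin 1 (probe A_51_P279552, transcript NM_016900), was dim and was well above background on 3 of 6 arrays. Its IP intensity was 62.5, 333 and 116 in control and 294, 389 and 28.9 in Cd. Its supernatant intensity was 67.5, 321 and 111 in control and 206, 140 and 28.1 in Cd. On control replicate 1 and Cd replicate 3 none of the 10 spots was well above background in either channel, and on control replicate 3 only 2 of 10 were. Control replicate 2 was therefore the only control array on which the gene was measured.

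The log2 ratio of Cav2 was -0.14, 0.08 and 0.05 in control and 0.52, 1.52 and -0.04 in Cd. The higher values were those of Cd replicates 1 and 2, while Cd replicate 3 lay among the controls with signals at background. Means were 0.00 ± 0.12 and 0.66 ± 0.79 (SD, n = 3 each), and limma put the log2 difference at 0.67 (SE 0.38, 95% interval -0.21 to 1.54, adjusted p = 0.961). With normexp background correction, whose offset of 50 draws dim probes toward 0 by construction, the difference was 0.18. Of the 3 arrays on which Cav2 was measured in both channels, control replicate 2 had an IP intensity 1.04 times that of the supernatant, Cd replicate 1 had 1.43 times and Cd replicate 2 had 2.78 times.

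The RNA level of Cav2 was -2.26, -0.59 and -2.18 in control and -1.10, -1.00 and -4.04 in Cd. Control replicate 2 was the highest, and the lowest value, on Cd replicate 3, is a signal at background in both channels. With normexp the levels ran only from -0.61 to -0.17. Means were -1.67 ± 0.94 and -2.05 ± 1.73 (SD, n = 3 each), and limma put the log2 difference at -0.37 (SE 0.83, 95% interval -2.28 to 1.54, adjusted p = 0.903). The difference was -0.11 with normexp. Its sign turned without Cd replicate 3 (0.63), without control replicate 2 (0.17) and without both control replicate 1 and Cd replicate 3 (0.33). By channel the difference was -0.12 (SE 0.93, limma adjusted p = 0.981) in the IP signal and -0.75 (SE 0.70, limma adjusted p = 0.713) in the supernatant. The IP difference became 1.01 without Cd replicate 3, 0.45 without control replicate 2 and 0.68 without both control replicate 1 and Cd replicate 3, and the supernatant difference became 0.06 without Cd replicate 3.

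Tm9sf1, the nonaspanin of Golgi and endosomal membranes (probe A_51_P455410, transcript NM_028780), was the one of the 4 genes whose scaled RNA level did not overlap between the groups. Its IP intensity was 6010, 8010 and 10500 in control and 7360, 8150 and 8440 in Cd. Its supernatant intensity was 5620, 10100 and 10600 in control and 7380, 7300 and 5800 in Cd. Before scaling the groups overlapped in both channels, and control replicate 1, the dimmest array, was the lowest for Tm9sf1 in both.

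After scaling to the 75th percentile of each array, the RNA level of Tm9sf1 was 4.15, 4.20 and 4.35 in control and 3.78, 3.86 and 3.88 in Cd. The highest Cd value lay below the lowest control value, as for 8.87% of the 30518 probes tested. Means were 4.23 ± 0.11 and 3.84 ± 0.06 (SD, n = 3 each), and limma put the log2 difference at -0.39 (SE 0.17, 95% interval -0.79 to 0.01). That is 0.762 times control for the scaled sum of dye-normalized channels, not for total RNA. The unadjusted limma p was 0.0549 and the adjusted p was 0.49, so the difference did not pass. With normexp background correction the difference was -0.02 and the groups overlapped, with 2.30, 2.82 and 3.06 in control against 2.79, 2.72 and 2.60 in Cd. That setting used raw spot signals without dye normalization. It also added 50 to each before scaling, which weighs more on a dim array such as control replicate 1. The share of each of these steps in the change was not tested. In the fit without normexp, the difference stayed between -0.44 and -0.33 when each array was left out. In an exact 2-sided permutation test p was 0.1, the smallest that 3 arrays against 3 allow.

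By channel, the groups were apart in the supernatant and overlapped in the IP signal. The scaled supernatant signal of Tm9sf1 was 4.16, 4.48 and 4.48 in control and 3.88, 3.90 and 3.69 in Cd, again with no overlap, as for 6.65% of 26878 probes in that direction. The limma log2 difference was -0.55 (SE 0.21, 95% interval -1.02 to -0.08, unadjusted p = 0.0278, adjusted p = 0.499), and it was -0.20 with normexp. The scaled IP signal was 4.34, 4.16 and 4.46 in control and 3.88, 4.04 and 4.23 in Cd, where Cd replicate 3 lay above control replicate 2. Its difference was -0.27 (SE 0.24, limma adjusted p = 0.78) and turned to 0.15 with normexp. Whether the supernatant and IP differences differ from each other is what the ratio tests.

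The log2 ratio of Tm9sf1 was 0.07, -0.32 and -0.04 in control and 0.00, 0.20 and 0.46 in Cd. Cd replicate 1 lay below control replicate 1, so the groups overlapped. Means were -0.09 ± 0.20 and 0.22 ± 0.23 (SD, n = 3 each), and limma put the log2 difference at 0.32 (SE 0.26, 95% interval -0.26 to 0.90, adjusted p = 0.963). The control mean lay near the array median, above 48.3% of the probes tested, and with the spike-in reference it was -0.94.

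Anxa8, the annexin of the set (probe A_51_P207591, transcript NM_013473), lay on the IP side of the median probe on every array. However, its supernatant signal did not reach the limit for well above background on 3 of 6 arrays. On control replicate 1 its IP signal did not reach the limit either, with 4 of 10 spots well above background. Its IP intensity was 187, 509 and 385 in control and 487, 439 and 201 in Cd. Its supernatant intensity was 93.2, 213 and 119 in control and 185, 167 and 78.5 in Cd. The supernatant signal was well above background on 1 control array and 2 Cd arrays. On control replicates 1 and 3 and Cd replicate 3, 0, 4 and 1 of 10 supernatant spots were well above background. The ratios of these arrays are thus taken against a channel that did not reach the limit.

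The log2 ratio of Anxa8 was 0.98, 1.28 and 1.68 in control and 1.40, 1.43 and 1.28 in Cd. All 3 Cd values lay inside the range of the control values. Means were 1.31 ± 0.35 and 1.37 ± 0.08 (SD, n = 3 each), and limma put the log2 difference at 0.06 (SE 0.27, adjusted p = 0.994). The 95% interval from -0.55 to 0.66 corresponds to 0.684-fold to 1.58-fold. Without control replicate 1 the difference was -0.11, and without both control replicate 1 and Cd replicate 3 it was -0.06. The control ratio was 0.30 with normexp, where dim probes are drawn toward 0, 0.47 with the spike-in reference, which put 5 of 6 arrays above 0, and 1.43 in the signals before dye normalization.

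The RNA level of Anxa8 was -1.18, -0.45 and -1.02 in control and -0.68, -0.80 and -1.78 in Cd. Means were -0.89 ± 0.39 and -1.09 ± 0.60 (SD, n = 3 each), and limma put the log2 difference at -0.20 (SE 0.34, 95% interval -0.98 to 0.58, adjusted p = 0.867). The sign turned without Cd replicate 3 (0.15) and without control replicate 2 (0.02). By channel the difference was -0.20 (SE 0.38, limma adjusted p = 0.912) in the IP signal and -0.22 (SE 0.35, limma adjusted p = 0.837) in the supernatant. With normexp the level, IP and supernatant differences were -0.08, -0.07 and -0.11. In the fits without normexp, the IP and supernatant differences became 0.16 and 0.12 when Cd replicate 3 was left out. They became 0.03 and 0.05 when control replicate 2 was left out. Without both control replicate 1 and Cd replicate 3 the supernatant difference was 0.05.

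**Figure D2:**
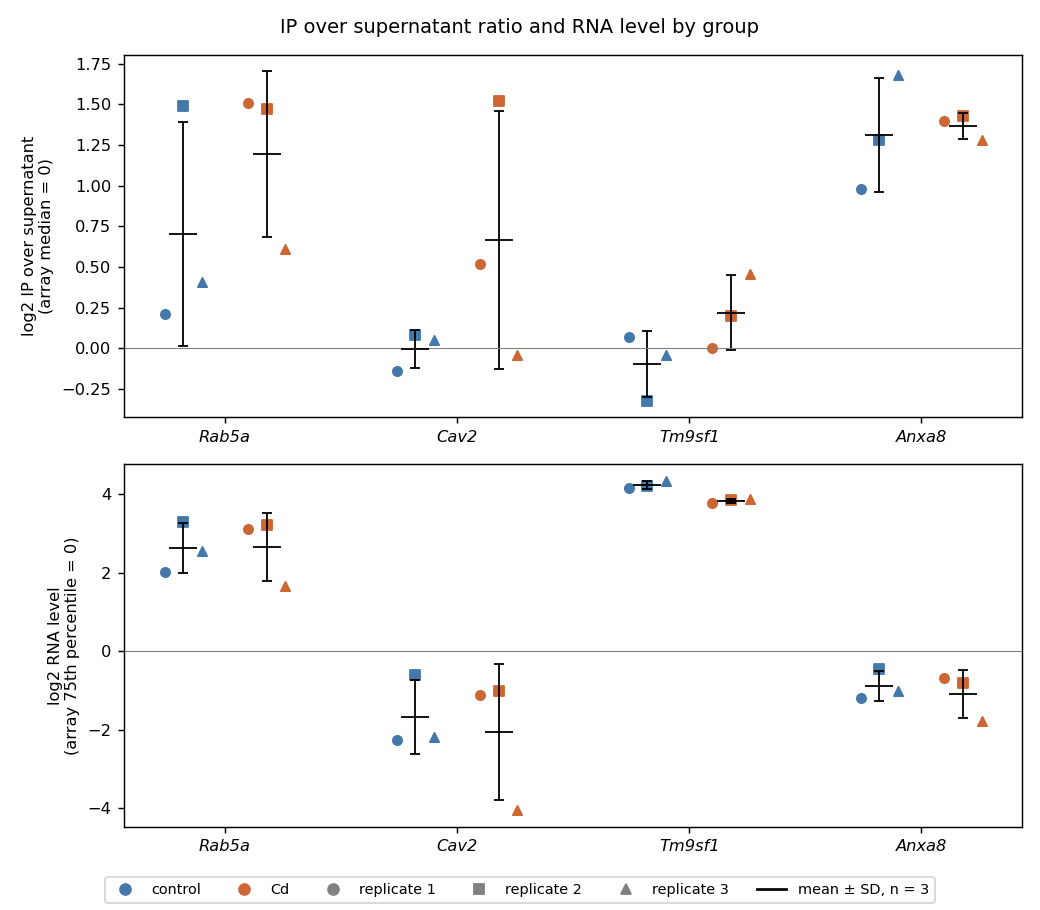
Log2 IP over supernatant ratio (top, array median at 0) and log2 RNA level (bottom, array 75th percentile at 0) of Rab5a, Cav2, Tm9sf1 and Anxa8; symbols are arrays, black marks are the mean ± SD of 3 arrays. The groups overlap everywhere except in the Tm9sf1 level, with 4.15 to 4.35 in control and 3.78 to 3.88 in Cd; levels of different probes are not comparable with each other.

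For the ratio, 0 of the 4 genes passed at a limma adjusted p of 0.05 and 0 had an unadjusted p under 0.05. Over all 23788 probes the same test called 0.00420% higher and 0% lower in Cd, and 5.02% had an unadjusted p under 0.05. The mean ratio was higher in Cd for 4 of 4 genes, as for 54.6% of all probes, with a median difference of 0.41 against 0.04 over all probes. The sign of Anxa8 turned when control replicate 1 was left out. The groups did not overlap for 0 of the 4 genes, against 10.0% of all probes.

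For the RNA level, 0 of the 4 genes passed with limma and 0 had an unadjusted p under 0.05, where the test called 0% of 30518 probes in either direction and 10.3% had an unadjusted p under 0.05. The mean was lower in Cd for 3 genes and higher for Rab5a, beside 50.1% of all probes lower. The median difference of the 4 genes was -0.29, against -0.00082 over all probes. It was -0.05 with normexp, 0.35 without Cd replicate 3 and 0.10 without control replicate 2, and without either of these arrays 3 of 4 genes were higher in Cd. The groups did not overlap for 1 of 4, Tm9sf1, against 19.5% of all probes.

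In the single channels, 0 of 4 genes passed with limma in the IP signal and 0 in the supernatant, where 0% of 27413 and 0% of 26878 probes were called. At an unadjusted p under 0.05 the counts were 0 and 1, the latter Tm9sf1, where it was lower in Cd. Among all probes 4.65% were higher and 3.35% lower at that p in the IP signal, and 6.57% higher and 2.99% lower in the supernatant. The groups did not overlap for 0 of 4 genes in the IP signal and for 1 of 4 in the supernatant, beside 16.3% and 18.2% of all probes. The mean IP signal was lower in Cd for 3 of 4 genes and 47.5% of all probes, and the mean supernatant signal for 4 of 4 genes and 48.5%. Without Cd replicate 3 only 1 of 4 genes, Tm9sf1, was lower in either channel, and without control replicate 2 the counts were 1 of 4 in the IP signal and 3 of 4 in the supernatant. With normexp 2 of 4 were lower in the IP signal. The 4 quantities come from the same pair of signals and do not support each other.

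**Figure D3:**
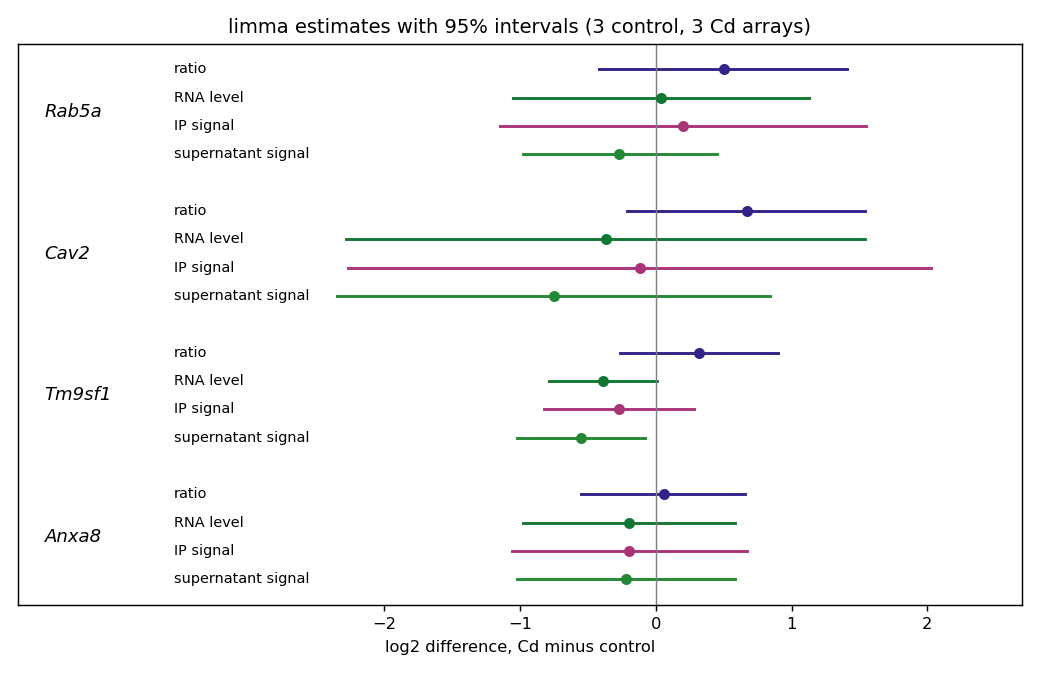
Limma log2 differences, Cd minus control, in the ratio, the RNA level, the IP signal and the supernatant signal of Rab5a, Cav2, Tm9sf1 and Anxa8, with 95% intervals from 3 control and 3 Cd arrays. The Tm9sf1 supernatant interval, from -1.02 to -0.08, is the one that does not reach 0 before adjustment, and the Cav2 level interval reaches from -2.28 to 1.54.

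The genes differed in their spread within a group. For the RNA level the pooled SD within groups was 0.76 for Rab5a, 1.39 for Cav2 and 0.51 for Anxa8, larger than in 95.5%, 99.7% and 83.4% of the probes tested. For Tm9sf1 it was 0.09, larger than in 1.83% of probes, and the median over all probes was 0.29. The limma SE of 0.17 for Tm9sf1 is larger than the 0.07 its own SD would give, since the fit draws each variance toward that of the other probes. The spread also depended on the processing: with normexp the SD was 0.71 for Rab5a, 0.16 for Cav2, 0.28 for Tm9sf1 and 0.09 for Anxa8. That setting also left out the dye normalization and added 50 to each signal, which draws dim probes together by construction. The Cav2 SD without normexp includes arrays on which no spot was well above background. The spots within an array contributed little to this: the standard error of an array mean over its used spots was at most 0.03 for Rab5a and Tm9sf1, 0.13 for Cav2 and 0.08 for Anxa8. In the ratio the dim genes were less repeatable between spots, with standard errors of up to 0.33 for Cav2 and 0.25 for Anxa8, beside 0.05 for Rab5a and 0.03 for Tm9sf1.

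Rab5a, Cav2 and Anxa8 had their 3 highest RNA levels on the same arrays, control replicate 2 and Cd replicates 1 and 2, and their lowest on Cd replicate 3. This order, looked for after the values were seen, was shared by many probes: 10.0% of all probes tested had these 3 arrays highest, 28.7% were lowest on Cd replicate 3 and 6.91% met both. Tm9sf1 had its 3 highest levels on the 3 control arrays. For Cav2 the order includes arrays at background. With normexp the order held in part. Rab5a kept the same 3 arrays highest (2.07, 2.15 and 2.23), and Cav2 (-0.61) and Anxa8 (-0.43) stayed lowest on Cd replicate 3. However, Rab5a was lowest on control replicate 1 (0.81), nearly level with Cd replicate 3 (0.85). Cav2 was lower on Cd replicate 1 (-0.41) than on control replicate 1 (-0.32). Anxa8 was nearly level on control replicate 1 (-0.23) and Cd replicate 1 (-0.24). Tm9sf1 was lowest on control replicate 1 (2.30). The normexp offset of 50 is a larger share of the signal on a dim array, and control replicate 1 was the dimmest. Its part in these lows was not tested. Likeness was measured as the root mean square (RMS) difference between the level profiles of a pair of genes over the 6 arrays, after the mean of each gene was taken off. It was 0.26 between Rab5a and Anxa8, 0.60 between Rab5a and Cav2 and 0.74 between Cav2 and Anxa8. With Tm9sf1 it was 0.45 for Anxa8, 0.67 for Rab5a and 1.16 for Cav2. Anxa8 was thus closer to Tm9sf1 than to Cav2.

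Among 35 other catalogue genes with a symbol, the profile most like that of Rab5a was that of Uhrf1bp1l, which encodes a bridge-like lipid transfer protein (RMS difference 0.16). The profile most like that of Cav2 was that of Rab5a itself. For Anxa8 it was Gsta4, a glutathione transferase, at 0.16, and for Tm9sf1 it was Dnajc11, a mitochondrial DnaJ-family protein, at 0.12. The level of Dnajc11 was 1.29, 1.08 and 1.15 in control and 0.58, 0.70 and 0.73 in Cd, without overlap and lower in Cd, as for Tm9sf1. Dnajc11 was picked for its likeness to Tm9sf1 on these same arrays, so the shared pattern lends Tm9sf1 no support. Genes that vary little over the arrays are close to one another by this measure whatever their order.

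**Figure D4:**
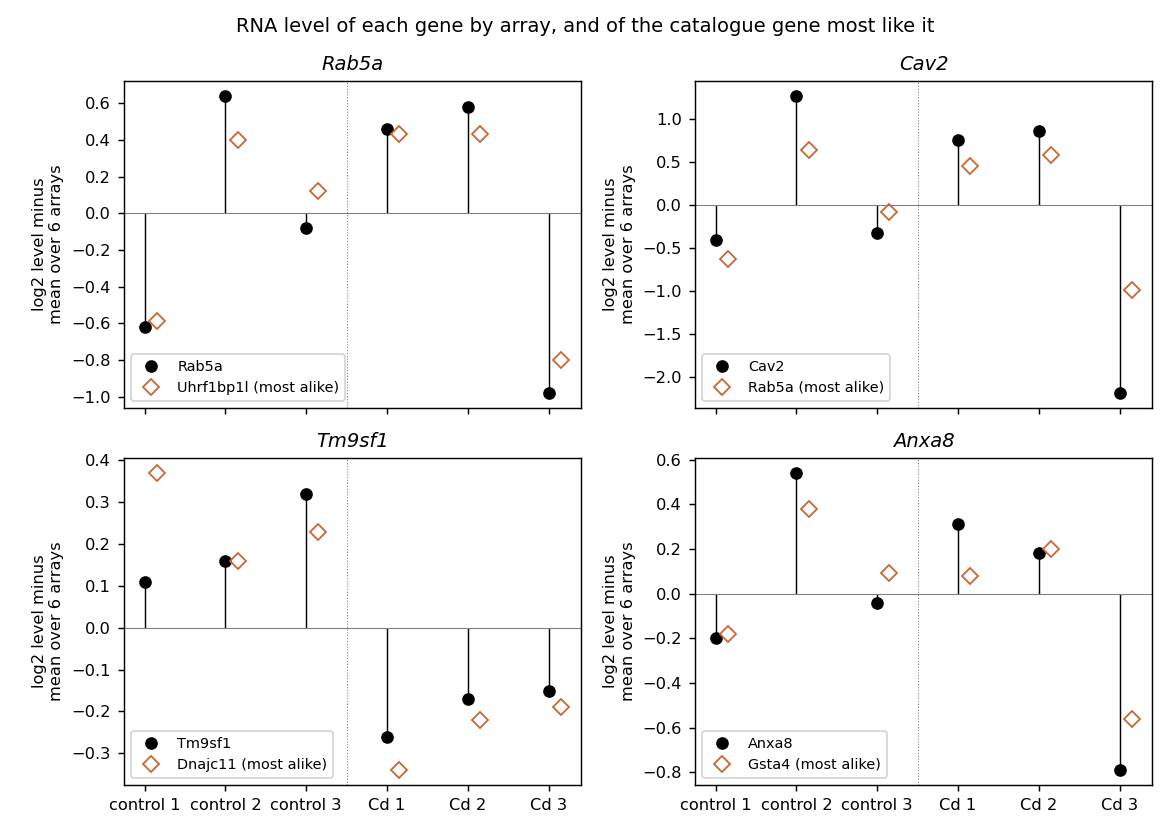
Log2 RNA level minus the mean over the 6 arrays for Rab5a, Cav2, Tm9sf1 and Anxa8 (black), with the catalogue gene of the smallest RMS difference (open orange). In this processing Rab5a, Cav2 and Anxa8 are lowest on Cd replicate 3, with -0.98, -2.18 (a Cav2 signal at background) and -0.79. Tm9sf1 is above its mean on the 3 control arrays. With normexp Cav2 and Anxa8 are still lowest on Cd replicate 3. Rab5a and Tm9sf1 are then lowest on control replicate 1, the dimmest array, where the offset of 50 weighs most. Scales differ between panels.

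Few other trafficking genes could be followed. Of 63 genes listed for early endosomes, caveolae, nonaspanins, annexins and membrane fusion, 5 have a probe with a known symbol, the 4 genes above and Chgb, a protein of secretory granules, and 0 of the 5 passed the level test with limma. Chgb had a level of -1.09 ± 0.52 in control against -2.93 ± 0.96 in Cd (SD, n = 3 each), with a limma adjusted p of 0.438. Its IP signal passed the background limit on 3 arrays in control and 1 in Cd, and its supernatant signal on 0. Chgb therefore entered the test through the control group, and its Cd level comes mostly from signals that did not pass that limit. Of 12 listed markers of sperm and late germ cells 3 have a named probe: Cep41, a ciliary protein, was measured on all 6 arrays in both channels, Hyal3, a sperm hyaluronidase, on all 6 in the IP channel, and Spats1 on 0 arrays. Of 25 listed markers of other cell types only Il2 has one. It was not well above background on any of the 6 arrays, so the purity of the sperm could not be checked.

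**Figure D5:**
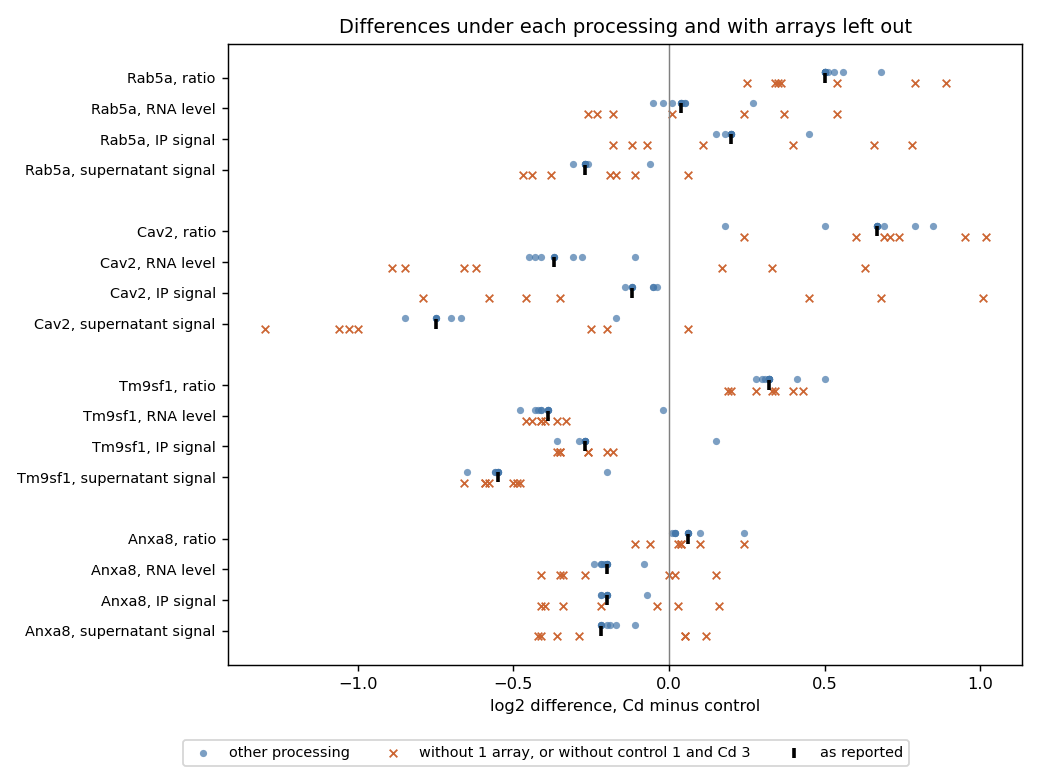
Log2 differences, Cd minus control, of Rab5a, Cav2, Tm9sf1 and Anxa8 as reported (black), under each other processing (blue) and with 1 array or both control replicate 1 and Cd replicate 3 left out (orange crosses). Tm9sf1 stays below 0 in level, from -0.48 to -0.02, and in supernatant signal, from -0.66 to -0.20, while the Rab5a, Cav2 and Anxa8 levels fall on both sides of 0.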

How the data were processed

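RNA of 6 sperm samples was measured on 2-colour Agilent arrays, and the authors' deposited scanner tables, made with Agilent Feature Extraction 11.0.1.1, hold spot intensity values per the file headers. The processed intensity was background-subtracted and dye-normalized within each array per the file headers. The log10 ratio (red to green) that the authors deposited was compared with that of the processed signals of the 4 probes. The largest gap was 0.033 on control replicate 1 and on Cd replicate 3, and at most 3e-07 on the other arrays. The reason was not tested, and the deposited ratio was not used further. The series table the authors deposited gives log2 values of the IP signal minus a constant per array whose meaning stays unknown, with column medians of -2.87, -2.00, -2.16, -2.11, -1.81 and -2.36. It lists 0 of the 4 probes and was not used.

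Spots with an outlier flag were dropped and spots of a probe averaged on the log2 scale. Probes entered a test when well above background on at least 3 of 6 arrays (in both channels for the ratio, in either for the level, in the channel itself otherwise), with no missing value. Groups were compared over all such probes with limma 3.58.1 (lmFit and eBayes, Benjamini-Hochberg over all probes, 2-sided, threshold 0.05) in R 4.3.3, and the number of arrays limits the precision. Figures used matplotlib 3.10.9 in Python 3.11.15. Catalogue probes were named through RefSeq transcripts (45 of 50 matched).

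The 4 genes, the gene lists and the tests were chosen with earlier results of these data known. The rule for named genes took the 4 genes, the catalogue gene with the most similar level profile to each, and every listed trafficking gene with a named probe. Markers are named as a check of the tissue. Alternatives covered background correction, filters, spot summaries, outlier flags, normalization, the variance model, the replicate block and each array left out. The normexp alternative corrected the raw median spot signals with an offset of 50, and dye normalization was not part of it. Leaving out both control replicate 1 and Cd replicate 3, and the ratio before dye normalization, were added after seeing the data.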

Additional observations from a re-analysis of the deposited data

How the results depend on the processing

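None of the 16 differences of the 4 genes passed in any alternative fit. Counted by gene, quantity and setting there were 255 alternative estimates, and many of them share a fit. Their smallest limma adjusted p was 0.248, and 229 kept their sign while 26 turned. When each array was left out, the level difference ranged from -0.26 to 0.54 for Rab5a, -0.89 to 0.63 for Cav2 and -0.41 to 0.15 for Anxa8. The IP difference ranged from -0.18 to 0.78, -0.79 to 1.01 and -0.41 to 0.16, the supernatant difference from -0.47 to 0.06, -1.30 to 0.06 and -0.42 to 0.12 in the same order, and the Anxa8 ratio difference from -0.11 to 0.24. Other turns were the Rab5a level with quantile normalization (-0.02) and with averaged log2 channels (-0.05), and the Tm9sf1 IP signal with normexp (0.15). Without both control replicate 1 and Cd replicate 3 the Cav2 level (0.33), the Cav2 IP signal (0.68), the Anxa8 ratio (-0.06) and the Anxa8 supernatant signal (0.05) turned. The cause was not tested. The count of 1 called probe for the ratio became 0 under normexp, with a filter on 1 channel, on all 6 arrays or none, with the spike-in reference, before dye normalization, with the replicate block and without both arrays, and lay between 0 and 1 with single arrays left out. The count of 0 for the supernatant became 1 with the filter on all 6 arrays, with a variance trend and without both arrays, and lay between 0 and 1 with single arrays left out. Replicate numbers gave no steady pairing of the arrays (correlations of level deviations within a number were -0.41, 0.43 and 0.00). With the replicate block the SE of the level difference fell from 0.83 to 0.54 for Cav2 and from 0.47 to 0.39 for Rab5a. For Anxa8 it fell from 0.34 to 0.30, and for Tm9sf1 it rose from 0.17 to 0.21. The Tm9sf1 level difference of -0.39 then had a limma adjusted p of 0.641. The filter on all 6 arrays removed Cav2 and Anxa8, and the deposited series table gave no value for the 4 probes. Dim signal limits Cav2 and the supernatant of Anxa8 most.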
